A study of Mus musculus with 29 samples.

Results

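Protein kinase C δ (PKCδ, encoded by Prkcd) is a kinase that is switched on by diacylglycerol, the lipid released when hormone receptors such as those for angiotensin II activate phospholipase C. In heart muscle it is studied in growth, cell death and stress signalling. An interaction asks whether a treatment changes a transcript by a different amount in each genotype, and it can come from a difference between the genotypes before the treatment, after it, or both. Described here is the interaction of PKCδ ablation with pressure overload in the mouse heart, gene by gene, with the arm of the design that carries it.

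The contrast was taken from 14 of the 29 libraries of the series, all of C57BL/6J mice labelled 12 weeks old. In transverse aortic constriction (TAC) the aorta is tied to a smaller width, so that the left ventricle pumps against raised pressure, here for 4 weeks per the labels. The groups were 3 libraries of TAC hearts with postnatal cardiac ablation of PKCδ, 4 of TAC wild-type hearts (labelled ntg), 3 of unstressed hearts with the PKCδ ablation and 4 of unstressed wild-type hearts. The labels name neither the promoter that drove the ablation nor the exons removed, and the controls are unstressed rather than sham-operated, so a TAC effect includes that of the operation. Polyadenylated RNA of the ventricular apex was sequenced, per the labels' protocols, although whole heart is given as the tissue. The marker list of cardiomyocytes was measured in full, at 115000 to 121000 CPM in TAC PKCδ hearts, against 102000 to 126000 in TAC wild type, and 119000 to 125000 in unstressed PKCδ hearts, against 123000 to 142000 in unstressed wild type (CPM is the count scaled to library size, here summed over the list). Nothing in the labels says how the libraries relate to separate animals beyond their numbers, so p-values measure the spread between libraries.

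The interaction was (TAC PKCδ minus unstressed PKCδ) minus (TAC wild type minus unstressed wild type) on the log2 scale. It equals T minus U, where T is the PKCδ difference from wild type after TAC and U is that difference in unstressed hearts. A gene is called where edgeR's quasi-likelihood test gave a Benjamini-Hochberg adjusted p below 0.05 over the 13765 genes tested, and every adjusted p below is from that test unless another is named. Errors are standard errors. The unstressed share of a gene's interaction is −U/(T−U), and the TAC share is the rest. A gene is led by an arm that holds at least 66.7% of its interaction, and otherwise by both arms.

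Of 13765 genes, 175 were called for the interaction (1.27%). In 63 genes the TAC effect was higher in PKCδ than in wild-type hearts (0.458%), and in 112 it was lower (0.814%). The interaction was over 2-fold in 83 of them. The unstressed arm led 129 of the 175 genes, both arms shared 45, and the TAC arm led 1, Fn1, which encodes fibronectin. The difference between genotypes was called in 0 genes after TAC (0%), where edgeR's smallest adjusted p was 0.552, 789 genes had an unadjusted p below 0.05 and DESeq2 called 1 gene. In unstressed hearts it was called in 739 genes (5.37%), 363 higher and 376 lower in PKCδ hearts. The median standard error was 0.135 for T and 0.138 for U. Both rest on 3 against 4 libraries and on an estimate of spread shared by all groups, so their likeness follows from the design. Within groups the median SD of log2 CPM was 0.085 in TAC PKCδ and 0.119 in TAC wild-type libraries. It was 0.11 in unstressed PKCδ and 0.12 in unstressed wild-type libraries. The TAC effect itself was called in 3696 genes in PKCδ hearts (26.9%) and in 4916 in wild-type hearts (35.7%). Its median standard error was 0.146 in PKCδ hearts, with 3 libraries per group, and 0.127 in wild-type hearts, with 4. These counts therefore do not compare the size of the TAC effect between genotypes.

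Among the called genes the median absolute log2 difference was 0.24 after TAC and 0.74 in unstressed hearts, against 0.10 and 0.15 over all genes. The unstressed share had a median of 76.2%, an interquartile range of 65.9 to 86.5% and a full range of 23.5 to 132%. A share over 100% means that T and U had the same sign. Genes are called when T and U lie far apart, so the opposite signs of T and U in 160 of the 175 genes (91.4%) and the calls of U in 165 are fixed in part by the choice, and nothing is read from them. T was called in 0 of the 175 by edgeR, and 54 had an unadjusted p below 0.05 for T. The sum of T and U, called the test of unequal arms here, is 0 where the arms are equal and opposite. It compares the arms only where T and U have opposite signs. Where the signs are the same, as in Pdzd7 (T at −0.23, U at −2.13), it does not. The sum was called in 39 of all genes (0.283%) and in 22 of the 175, each with the larger difference in the unstressed arm. Those 22 are among the 129, so the sum did not pass the test in the rest of the 129. Just inside the threshold were Slc2a4, Gm15645 and 9230112J17Rik (adjusted p of 0.0487 each), and just outside it Pde4dip (0.0512), Fgf18 (0.052) and Plekhh1 (0.0523).

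**Figure D1:**
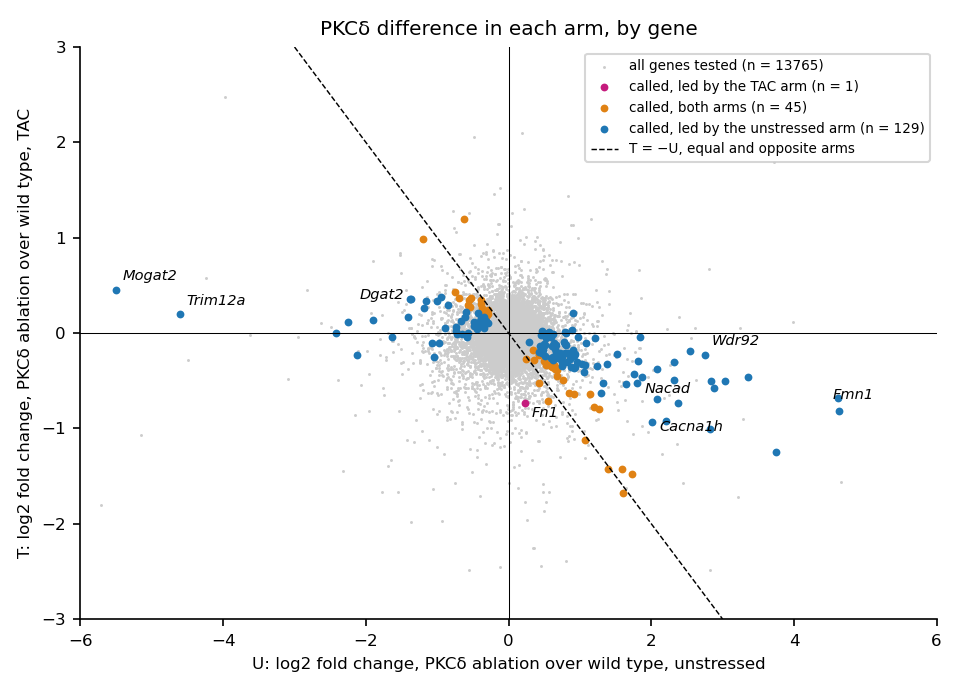
Log2 difference of PKCδ from wild-type hearts after TAC (vertical axis) and in unstressed hearts (horizontal axis), 1 point per gene, with the called genes coloured by leading arm. Called genes spread mainly along the horizontal axis, and 8 genes that were not called lie outside the axes.

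**Figure D2:**
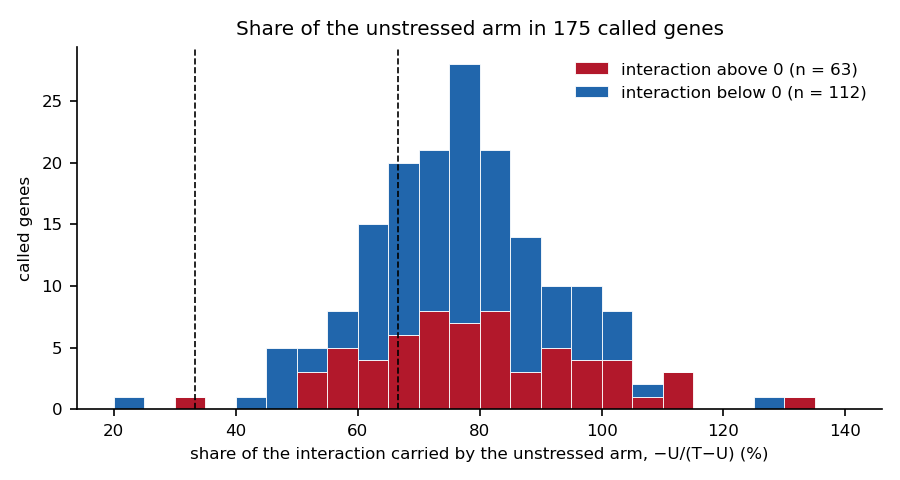
Number of called genes (vertical axis) by the share of the interaction carried by the unstressed arm in percent (horizontal axis), stacked by direction. The median share was 76.2%, and Fn1 had the lowest at 23.5%.

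Each group was also set against all other libraries of the 14, a count added after the values had been seen. The TAC PKCδ libraries all lay outside the range of the other 11 in 2 of the 175 genes (1.14%, against 0.821% of all genes), and the TAC wild-type libraries outside that of the other 10 in 7 (4%, against 4.12%). The unstressed PKCδ libraries did so in 94 (53.7%, against 9.76%) and the unstressed wild-type libraries, against their other 10, in 49 (28%, against 4.29%). These libraries make up the contrast that chose the genes, so the counts are a description. The genotypes did not overlap after TAC in 41 of the 175 genes, a higher share than the 1269 of all 13765 genes (9.22%). In unstressed hearts they did not overlap in 168 of the 175, against 2754 of all genes (20%). In 28 of the 175 every TAC PKCδ library lay inside the range of the TAC wild-type libraries. That is a lower share than the 4356 of all genes (31.6%).

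By genotype, 70 of the 175 genes had a called TAC effect in PKCδ hearts and none called in wild type, 23 raised and 47 lowered by TAC. In 52 the effect was called in wild type and not in PKCδ hearts, 27 raised and 25 lowered. It was called in both genotypes in opposite directions in 42, and in the same direction in 11. Shares of these patterns over all genes are not given, and a missing call does not mean a missing effect. The TAC effect was also measured less precisely in PKCδ hearts (median standard error 0.146) than in wild-type hearts (0.127). These counts are therefore a description and not classes of genes.

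**Figure D3:**
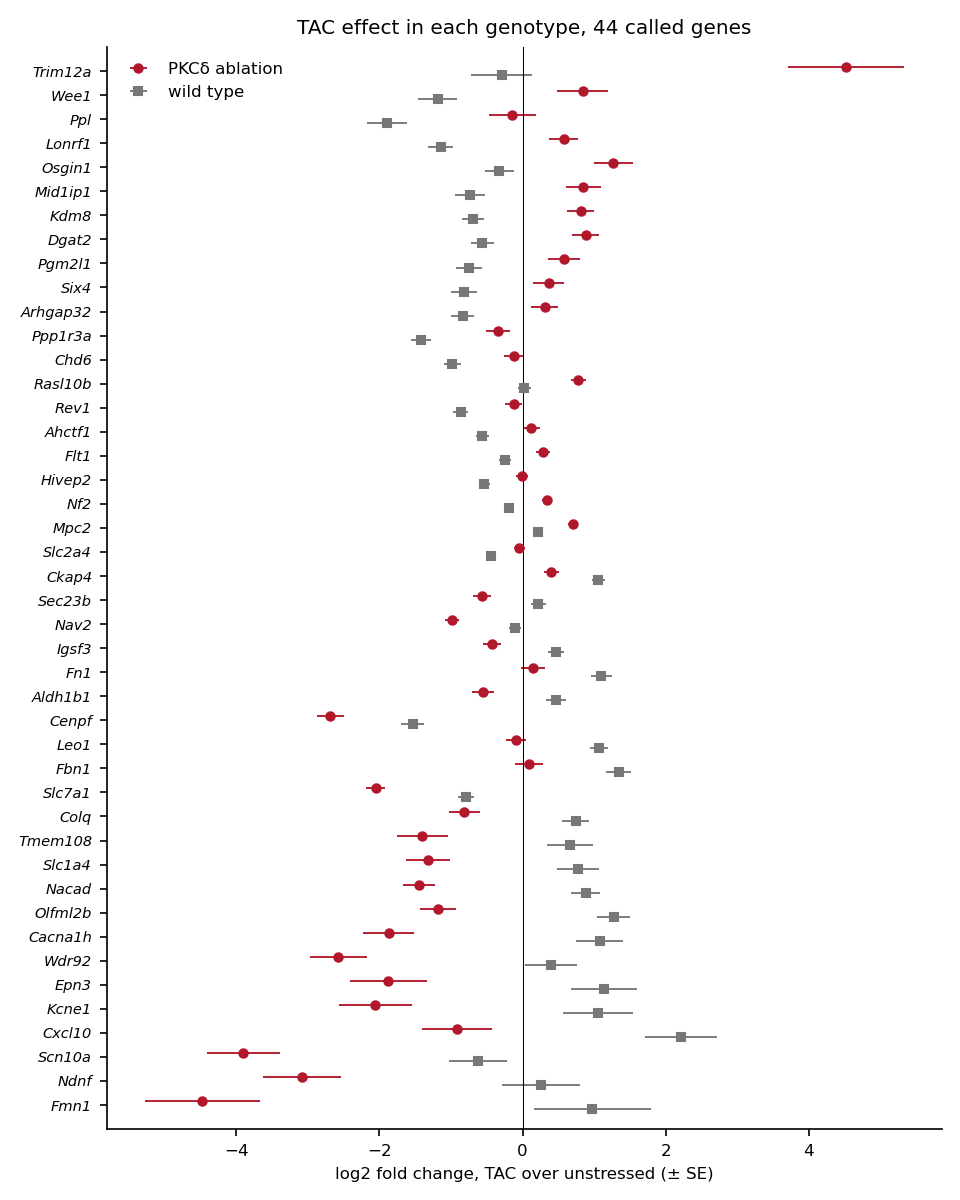
TAC effect (log2 fold change, TAC over unstressed, ± SE) in PKCδ and in wild-type hearts for 44 of the called genes named in the text. Of the genes drawn, Trim12a had the highest interaction at 4.81 and Fmn1 the lowest at −5.45. Mogat2, at 5.96, is not drawn.

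Each called gene falls in one of 5 sets by arm and direction. Led by the unstressed arm with a higher TAC effect in PKCδ hearts were 46 genes. They included Lonrf1, Nf2, Kdm8, Mogat2, Dgat2, Rasl10b, Mpc2, Pdzd7, Cpe, Pkig, Jph1, Trim12a, Sfswap, Pdxk, Mid1ip1, Slco2b1, Rilpl1, Osgin1, Trip10, Pgm2l1, Myo7a, Urgcp and Arhgap32. Also in that set were Filip1, Wee1, Kcnt1, Tbrg4, Flt1, Gdf10, Pgap2, Tmem223, Mafg, Aqp1, Smcr7, Pcnt, Ppl, Gm6086, Ndufc2, Stard13, Ddx56, Ccdc85a, Aifm2, Polr3e and Slc2a4. Led by the unstressed arm with a lower TAC effect were 83 genes. They included Nacad, Slc7a1, Nav2, Olfml2b, Leo1, Scd2, Relt, Sulf2, Slc35f6, Cd59a, Sypl2, Ap1b1, Add3, Cacna1h, Abhd2, Rgs12, Fads1, Igfbpl1, Gm9899, Sept1, Slc46a2, Sun3, Wdr92, Akr1b8, Fbn2, Slc1a4, Epha4 and Sccpdh. The set also held Jmjd7, Entpd5, Hmcn1, Morn4, Tnfaip2, Cenpf, Rab31, Ptpre, Pla2g4b, Tmem171, Neo1, Ptprd, Fmn1, Ror1, Pnpla3, Tubb4b, Smtnl1, Sdc4, Cxcl10, Ccdc32, Clasp1, Fam78a, Timm10, Fuca2, 2210015D19Rik, Ankrd50 and Thsd4. Further members were Plat, Kcne1, Tgfa, Slc41a3, Epb4.1l3, Calm2, Lrp4, Grk5, Cd72, Ndnf, E130311K13Rik, Gata4, Rel, Dgki, Zfp462, Gja1, Adam19, Pde4b, Upp1, Sh2d4a, Exoc3l4, Mt3, Pgm5, Adra1b, Cdh20, Armcx1 and 9230112J17Rik. Both arms shared 17 genes with a higher TAC effect, namely Ppp1r3a, Chd6, Rev1, Hivep2, Ahctf1, Slmap, Cpeb3, Intu, Dusp8, Six4, Bmp2, Spast, Zfp106, Dach1, Slco5a1, Lrpprc and 9430037G07Rik. Both arms shared 28 with a lower one, namely Fras1, Igsf3, Rnf208, Colq, Aldh1b1, Sec23b, Ckap4, Ncf4, Scn10a, Hspb3, Fbn1, Vdr, Lsp1, Gsg1l, Gcnt1, Tmem108, Ccnjl, Aff3, Epn3, Lgi3, Fam53b, Sirpa, Tyro3, Gcgr, Efhd1, Otub2, Lcp1 and Gm15645. Fn1 alone was led by the TAC arm, with a lower TAC effect in PKCδ hearts. The 22 genes called for the sum of T and U were Slc7a1, Olfml2b, Cd59a, Mogat2, Abhd2, Rasl10b, Wdr92, Pdzd7, Pkig, Trim12a, Entpd5, Morn4, Tnfaip2, Osgin1, Neo1, Myo7a, Tubb4b, Fuca2, 2210015D19Rik, Pde4b, Ndufc2 and Ccdc85a. In some of them, such as Pdzd7, Myo7a and Pde4b, T and U had the same sign.

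The libraries also differed in ways that the labels do not give, and these fall partly along the arms. The labels put down 2 of 3 TAC PKCδ libraries and 1 of 4 TAC wild-type libraries as female, and every unstressed library as male. At 10 CPM or more, all 3 TAC PKCδ libraries and 3 of 4 TAC wild-type libraries held both Xist, a transcript of the inactive X chromosome, and Y-linked transcripts, and the other TAC wild-type library held Xist only. Pooled or mixed RNA of both sexes would hold both, which was not tested, so each n counts libraries and may not count single animals. All 3 unstressed PKCδ libraries held Xist only, at 135 to 154 CPM, while 2 unstressed wild-type libraries held Xist only and replicates 1 and 4 Y-linked transcripts only. Without those 2 replicates, 46 genes were called, 38 of them led by the unstressed arm. With the sex label as a term 125 genes were called, and with a score of the Y-linked transcripts 199. The libraries labelled male, which leave 1 TAC PKCδ library that is assumed to vary like the others, gave 85 genes, of which the unstressed arm led 32, both arms shared 48 and the TAC arm led 5. In that fit, unlike the other 3, the unstressed arm did not lead most of the called genes. The 175 genes kept the sign of their interaction in all 4 of these fits, which is fixed in part by their choice from these libraries. Counts in genes ranged from 10523709 to 15452223 over the 14 libraries, and Rn45s, the ribosomal RNA precursor, took 4.51 to 6.67% of them after TAC and 9.9 to 14.1% in unstressed hearts. TAC wild-type replicate 2 stood apart in the skeletal muscle myosin Myh2, at 10.2 CPM, against at most 0.301 in the other 13 libraries and 2.99 to 28.8 in the 7 libraries labelled PKCε knockout. It was also the lowest of its group in Prkce, the gene of PKCε, at 24.0 CPM, against 33.3 to 42.9 in the other TAC wild-type libraries and at most 10.8 in those 7. Whether its wild-type label holds was not tested, and without it 146 genes were called. Without TAC PKCδ replicate 1 there were 56, the lowest count with 1 of the 14 left out, and without unstressed wild-type replicate 2 there were 256, the highest. Some pairs of replicates were closer than the others of their groups in chi-square per degree of freedom, which is lower for more similar counts. It was 2.22 for unstressed wild-type replicates 1 and 4, against 6.81 to 12.6 for other pairs there. It was 2.45 for TAC PKCδ replicates 1 and 2, against 5.08 and 5.1. Whether these pairs share RNA was not tested, and shared RNA would make the spread too small.

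Prkcd itself was not called, with an interaction of −0.50 ± 0.18 (adjusted p = 0.198). Its level was 17.7, 18.3 and 20.8 CPM in TAC PKCδ hearts, against 23.4, 20.5, 28.0 and 20.6 in TAC wild type. It was 18.7, 16.3 and 17.6 in unstressed PKCδ hearts, against 15.5, 15.8, 13.4 and 15.8 in unstressed wild type. In the unstressed arm, which leads most called genes, every PKCδ library therefore had more Prkcd RNA than every wild-type library, though U was not called (0.21 ± 0.13, adjusted p = 0.4). Whole-gene counts from every cell type of the tissue are no check of a cardiac deletion of unnamed exons. Prkce had an interaction of 0.53 ± 0.38 (adjusted p = 0.608). The list of PKC isoforms and diacylglycerol signalling had 0 of 29 measured members called for the interaction (0%, against 1.27% of all genes).

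Nacad, which encodes a protein with the domain of the nascent polypeptide-associated complex, had the smallest adjusted p. It lies on GRCm38 chromosome 11, 6597814 to 6606059. Its level was 3.11, 4.13 and 5.13 CPM in TAC PKCδ hearts, against 6.11, 4.59, 6.48 and 6.62 in TAC wild type. It was 10.3, 12.7 and 10.7 in unstressed PKCδ hearts, against 2.96, 3.83, 3.42 and 2.74 in unstressed wild type. Of the 14 libraries the unstressed PKCδ ones were the highest, and the genotypes overlapped after TAC. The interaction was −2.33 ± 0.30 (adjusted p = 0.000183), with T at −0.53 ± 0.21, U at 1.80 ± 0.21 and an unstressed share of 77.4%.

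Slc7a1 (chromosome 5, 148327410 to 148399904) encodes the cationic amino acid transporter CAT-1. Its level was 40.0, 41.1 and 45.8 CPM in TAC PKCδ hearts, against 43.2, 38.9, 46.9 and 46.4 in TAC wild type. It was 179, 173 and 176 in unstressed PKCδ hearts, against 70.6, 86.1, 75.7 and 70.3 in unstressed wild type. All TAC PKCδ values lay within the range of TAC wild type, and all unstressed PKCδ values lay above every other library. The interaction was −1.27 ± 0.17 (adjusted p = 0.000269), 96.0% of it from the unstressed arm. TAC lowered Slc7a1 in both genotypes, by 2.05 (log2) in PKCδ and by 0.79 in wild-type hearts. Another amino acid transporter, Slc1a4 (ASCT1), had an interaction of −2.10 ± 0.42 (adjusted p = 0.011).

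Fmn1 (chromosome 2, 113327664 to 113716768), which encodes a formin that nucleates actin filaments, had the lowest interaction of the named genes, −5.45 ± 1.13 (adjusted p = 0.0151). Its level was 1.69, 2.40 and 2.30 CPM in TAC PKCδ hearts, against 3.29, 2.04, 7.06 and 2.58 in TAC wild type. It was 48.7, 47.0 and 46.8 in unstressed PKCδ hearts, against 1.66, 1.73, 2.11 and 2.14 in unstressed wild type. The unstressed PKCδ libraries were the only ones of the 14 above 10 CPM. Wdr92, a WD-repeat protein that takes part in dynein assembly, was arranged alike. Its level was 17.3, 18.3 and 16.6 CPM in TAC PKCδ hearts, against 15.5, 28.4, 22.7 and 14.8 in TAC wild type, and 136, 82.2 and 93.5 in unstressed PKCδ hearts, against 14.6, 12.3, 20.8 and 14.6 in unstressed wild type. Its interaction was −2.97 ± 0.53 (adjusted p = 0.00608), and 18.5% of its exonic bases are shared with other genes on its strand, so its reads may be split.

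**Figure D4:**
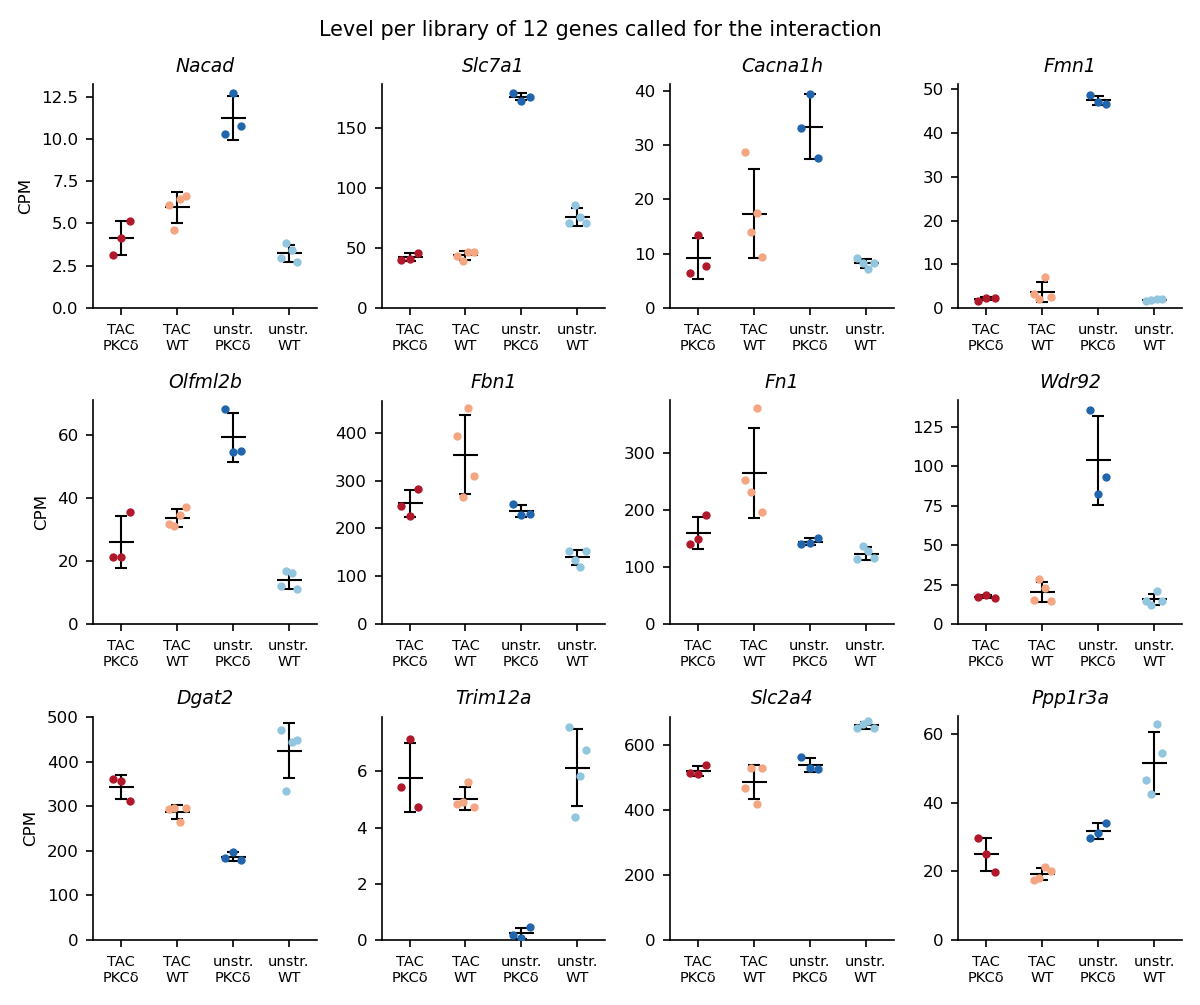
CPM per library (points) of 12 called genes in TAC PKCδ, TAC wild-type, unstressed PKCδ and unstressed wild-type hearts, with mean and SD (n = 3 or 4). For Nacad, Slc7a1, Fmn1, Wdr92 and Trim12a the unstressed PKCδ libraries lie outside the range of the other 11, and for Slc2a4, Ppp1r3a and Fbn1 the unstressed wild-type libraries do.

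Ion channels gave 3 genes with a lower TAC effect, of 50 measured members of the list of calcium handling and ion channels (6%, against 1.27% of all genes). The median interaction of the list was −0.03. U was called in 8 members, 6 higher and 2 lower in PKCδ hearts (16%, against 5.37% of all genes). Cacna1h encodes the T-type calcium channel Cav3.2, which is expressed in the fetal ventricle. Its level was 6.35, 13.3 and 7.70 CPM in TAC PKCδ hearts, against 28.6, 14.0, 17.5 and 9.33 in TAC wild type. It was 33.1, 39.4 and 27.6 in unstressed PKCδ hearts, against 9.16, 8.19, 7.23 and 8.22 in unstressed wild type. The genotypes overlapped after TAC and lay far apart in unstressed hearts. TAC moved Cacna1h in opposite directions, by −1.87 (log2) in PKCδ and 1.08 in wild-type hearts, with an interaction of −2.94 ± 0.48 (adjusted p = 0.00306) and an unstressed share of 68.4%. Scn10a, the sodium channel Nav1.8, was shared by both arms, with 48.7% from the unstressed arm. Its level was 0.583, 0.400 and 0.811 CPM in TAC PKCδ hearts, against 1.81, 2.29, 2.20 and 1.39 in TAC wild type. It was 7.66, 8.87 and 10.6 in unstressed PKCδ hearts, against 3.17, 3.61, 2.51 and 2.61 in unstressed wild type. The genotypes did not overlap in either arm, and their order was reversed between the arms. Its interaction was −3.28 ± 0.67 (adjusted p = 0.012). Kcne1, a regulatory subunit of the slow delayed rectifier potassium channel, had an interaction of −3.11 ± 0.70 (adjusted p = 0.0268). Its level was 4.08, 4.93 and 1.82 CPM in TAC PKCδ hearts, against 8.45, 6.69, 6.93 and 1.88 in TAC wild type, and 19.0, 13.3 and 13.0 in unstressed PKCδ hearts, against 1.80, 3.98, 3.92 and 2.14 in unstressed wild type.

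The extracellular matrix list had 4 of 62 measured members called (6.45%, against 1.27% of all genes), all with a lower TAC effect in PKCδ hearts. Its median interaction was −0.50, against −0.0021 over all genes, and U was called in 3 members higher and 1 lower (6.45%, against 5.37% of all genes). Olfml2b, an olfactomedin-like secreted protein, was led by the unstressed arm. Its level was 21.2, 21.3 and 35.6 CPM in TAC PKCδ hearts, against 31.8, 31.2, 34.5 and 37.2 in TAC wild type. It was 68.0, 54.7 and 54.9 in unstressed PKCδ hearts, against 12.1, 16.8, 16.2 and 11.0 in unstressed wild type. Highest of the 14 were the unstressed PKCδ libraries and lowest the unstressed wild-type ones. Its interaction was −2.46 ± 0.34 (adjusted p = 0.00115). Ndnf, a secreted protein, had an interaction of −3.34 ± 0.78 (adjusted p = 0.0325), 84.9% of it from the unstressed arm.

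Fbn1 encodes fibrillin, the backbone of microfibrils. Its level was 248, 227 and 283 CPM in TAC PKCδ hearts, against 393, 265, 451 and 309 in TAC wild type. It was 250.4, 229 and 230.1 in unstressed PKCδ hearts, against 152, 133, 119.8 and 153 in unstressed wild type. The unstressed wild-type libraries were the lowest of the 14. TAC raised Fbn1 in wild-type hearts by 1.34 (log2), while the TAC effect of 0.10 in PKCδ hearts was not called. The interaction was −1.25 ± 0.26 (adjusted p = 0.0135), shared by both arms, and 20.1% of its exonic bases lie opposite an antisense gene, which these libraries cannot separate.

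Fn1 was the gene led by the TAC arm, with T at −0.73 ± 0.16 (adjusted p = 0.552) and U at 0.22 ± 0.16 (adjusted p = 0.463). Its level was 140.0, 148 and 191 CPM in TAC PKCδ hearts, against 253, 232, 379 and 196 in TAC wild type. It was 139.8, 142 and 151 in unstressed PKCδ hearts, against 114, 137, 128 and 116 in unstressed wild type. The genotypes did not overlap in either arm, but the nearest libraries lay close together in both. Its interaction was −0.95 ± 0.22 (adjusted p = 0.0308), and the call ended in 13 of 25 other settings. Neither arm of Fn1 was called alone. Fibroblast markers had 0 of 17 called (0%, against 1.27% of all genes) and a median interaction of −0.39. They summed to 3150 to 3740 CPM in TAC PKCδ hearts, against 3550 to 5260 in TAC wild type, and 2380 to 2640 in unstressed PKCδ hearts, against 2600 to 2720 in unstressed wild type. Their part in the matrix genes was not tested, and in bulk RNA fewer cells of a type and less RNA per cell cannot be told apart.

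Dgat2, which makes triglyceride from diacylglycerol, was the called member of 48 measured in the fatty acid list (2.08%, against 1.27% of all genes) and had a higher TAC effect in PKCδ hearts. Its level was 361, 356 and 312 CPM in TAC PKCδ hearts, against 294, 296, 264 and 295 in TAC wild type. It was 183, 198 and 178 in unstressed PKCδ hearts, against 470.4, 334, 445 and 448 in unstressed wild type. All 3 unstressed PKCδ libraries lay below the other 11. TAC raised Dgat2 in PKCδ hearts by 0.88 (log2) and lowered it in wild-type hearts by 0.56, for an interaction of 1.44 ± 0.25 (adjusted p = 0.00407). Some called lipid genes outside that list, singled out after their values were seen, had a lower TAC effect. The desaturases Scd2 and Fads1 had interactions of −1.35 ± 0.21 (adjusted p = 0.00156) and −0.67 ± 0.12 (adjusted p = 0.00426), and Pnpla3, a lipid droplet protein, one of −2.18 ± 0.49 (adjusted p = 0.0164). In the glucose list 2 of 33 measured members were called (6.06%, against 1.27% of all genes), both with a higher TAC effect in PKCδ hearts. Mpc2, a subunit of the mitochondrial pyruvate carrier, was 175, 159.5 and 168 CPM in TAC PKCδ hearts, against 164, 170.3, 158 and 156 in TAC wild type. It was 101, 106 and 101 in unstressed PKCδ hearts, against 138, 145, 142 and 136 in unstressed wild type. Again the unstressed PKCδ libraries were the lowest, and the interaction was 0.49 ± 0.09 (adjusted p = 0.00581), 90.7% of it from the unstressed arm.

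Slc2a4, the insulin-responsive glucose transporter GLUT4, was 513, 512 and 539 CPM in TAC PKCδ hearts, against 467, 528, 419 and 530.3 in TAC wild type. It was 562, 528 and 526 in unstressed PKCδ hearts, against 651, 663, 675 and 651 in unstressed wild type. Here the unstressed wild-type libraries stood above the other 10. TAC lowered Slc2a4 in wild-type hearts by 0.44 (log2), while its effect in PKCδ hearts, −0.05, was not called. The interaction was 0.40 ± 0.10 (adjusted p = 0.0487), and the call ended in 18 of 25 other settings. Ppp1r3a, the subunit that targets protein phosphatase 1 to glycogen in muscle and outside both lists, had an interaction of 1.07 ± 0.22 (adjusted p = 0.011). Its level was 29.7, 25.1 and 19.9 CPM in TAC PKCδ hearts, against 17.6, 18.1, 21.3 and 20.1 in TAC wild type. It was 29.7, 31.0 and 34.2 in unstressed PKCδ hearts, against 46.4, 42.4, 62.8 and 54.4 in unstressed wild type. The unstressed wild-type libraries were the highest of the 14. Of other genes outside the lists, Mid1ip1, an activator of acetyl-CoA carboxylase, had an interaction of 1.58 ± 0.31 (adjusted p = 0.0119), and Pgm2l1, which makes glucose bisphosphate, one of 1.32 ± 0.29 (adjusted p = 0.0137). Of the exonic bases of Mid1ip1, 25.5% lie opposite an antisense gene, which these libraries cannot separate. The respiratory chain list had 0 of 43 measured members called (0%, against 1.27% of all genes).

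In the clock list, U was called in 8 of 24 measured members (33.3%, against 5.37% of all genes), 3 higher and 5 lower in PKCδ hearts, and T in 0. The interaction was called in 1 (4.17%, against 1.27% of all genes), Wee1, a kinase that holds CDK1 inactive and whose transcript follows the clock. The median interaction of the list was 0.50. In the circadian loop CLOCK and BMAL1 (Arntl) drive Per, Cry, Nr1d1 and output genes through E-boxes, and PER and CRY proteins repress that activity in turn. The labels give no time of day.

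Promoters of Cry1 and Tef are shown because U was called lower in both and their windows, from 250 bases before to 50 after the start site, hold the E-box CACGTG (RefSeq, GRCm38.p6). The motif, which reads the same on both strands, is in capitals. It was found in 2349 of 32851 such windows (7.15%) and in 6 of 27 windows of the clock list (22.2%). The list's other windows with the motif were of Ciart, Per1 and Bhlhe41. U was not called in Per1 or Bhlhe41, and Ciart was not among the measured members. The windows of Arntl, Clock, Nr1d1 and Usp2 did not hold these letters, which says nothing of what binds there. No window was found for Wee1 or Per2, so the motif is not tied to the genes called lower. The Cry1 window is chr10:85185005-85185304 on the minus strand, and the Tef windows are chr15:81802423-81802722 and chr15:81811164-81811463 on the plus strand.
Cry1: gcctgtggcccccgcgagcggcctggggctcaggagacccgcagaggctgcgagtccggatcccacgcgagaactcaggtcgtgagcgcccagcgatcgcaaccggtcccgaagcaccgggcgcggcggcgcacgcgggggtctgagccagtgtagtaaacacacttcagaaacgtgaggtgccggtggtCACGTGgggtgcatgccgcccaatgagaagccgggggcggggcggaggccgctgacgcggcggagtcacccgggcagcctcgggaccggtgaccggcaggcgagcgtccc
Tef, upstream start: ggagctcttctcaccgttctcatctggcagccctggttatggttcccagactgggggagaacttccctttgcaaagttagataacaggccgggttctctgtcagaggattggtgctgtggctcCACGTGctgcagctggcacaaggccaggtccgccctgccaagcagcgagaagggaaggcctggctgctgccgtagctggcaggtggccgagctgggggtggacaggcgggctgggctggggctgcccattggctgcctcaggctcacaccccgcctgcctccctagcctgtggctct
Tef, downstream start: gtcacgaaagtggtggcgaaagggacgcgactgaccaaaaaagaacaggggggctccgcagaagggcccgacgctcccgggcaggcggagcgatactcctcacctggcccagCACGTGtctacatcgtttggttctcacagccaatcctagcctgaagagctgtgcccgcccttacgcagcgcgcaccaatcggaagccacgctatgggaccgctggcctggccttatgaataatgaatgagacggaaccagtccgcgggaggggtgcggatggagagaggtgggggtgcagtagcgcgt

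Wee1 was 7.46, 8.13 and 4.87 CPM in TAC PKCδ hearts, against 6.37, 5.61, 7.77 and 5.08 in TAC wild type. It was 3.66, 3.01 and 4.69 in unstressed PKCδ hearts, against 16.9, 8.79, 13.9 and 16.9 in unstressed wild type. Lowest of the 14 were the unstressed PKCδ libraries and highest the unstressed wild-type ones. Its interaction was 2.03 ± 0.45 (adjusted p = 0.0205), with an unstressed share of 93.4%. Cry1, a repressor of the loop, had a U of −0.92 ± 0.17 (adjusted p = 0.00124). It was 7.46, 7.74 and 6.82 CPM in TAC PKCδ hearts, against 7.58, 7.97, 8.87 and 6.62 in TAC wild type, and 5.44, 6.02 and 5.22 in unstressed PKCδ hearts, against 9.95, 10.6, 12.1 and 9.70 in unstressed wild type. Tef, an output transcription factor, had a U of −1.13 ± 0.29 (adjusted p = 0.0247). It was 143, 159 and 96.3 CPM in TAC PKCδ hearts, against 97.5, 113, 126 and 102 in TAC wild type, and 112, 128 and 138 in unstressed PKCδ hearts, against 284, 251, 279 and 289 in unstressed wild type. For both genes the unstressed wild-type libraries stood above the other 10, and the interaction was not called, at 0.84 ± 0.23 (adjusted p = 0.0659) for Cry1 and 1.41 ± 0.40 (adjusted p = 0.0849) for Tef. Per2, another repressor, had a U of −1.77 ± 0.50 (adjusted p = 0.0416), and Usp2, a deubiquitinase and clock output, one of −0.74 ± 0.19 (adjusted p = 0.0255).

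On the activating side of the loop Arntl was higher in unstressed PKCδ hearts. It was 6.68, 6.00 and 11.3 CPM in TAC PKCδ hearts, against 15.6, 14.5, 6.67 and 10.8 in TAC wild type. It was 8.51, 8.20 and 7.04 in unstressed PKCδ hearts, against 1.15, 1.28, 1.91 and 1.74 in unstressed wild type. The unstressed wild-type libraries were the lowest of the 14, with U at 2.39 ± 0.59 (adjusted p = 0.0204) and an uncalled interaction of −2.96 ± 0.76 (adjusted p = 0.055). Clock had a U of 0.82 ± 0.15 (adjusted p = 0.00158) and Nr1d1, a repressor of Arntl, one of 0.58 ± 0.16 (adjusted p = 0.0347).

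**Figure D5:**
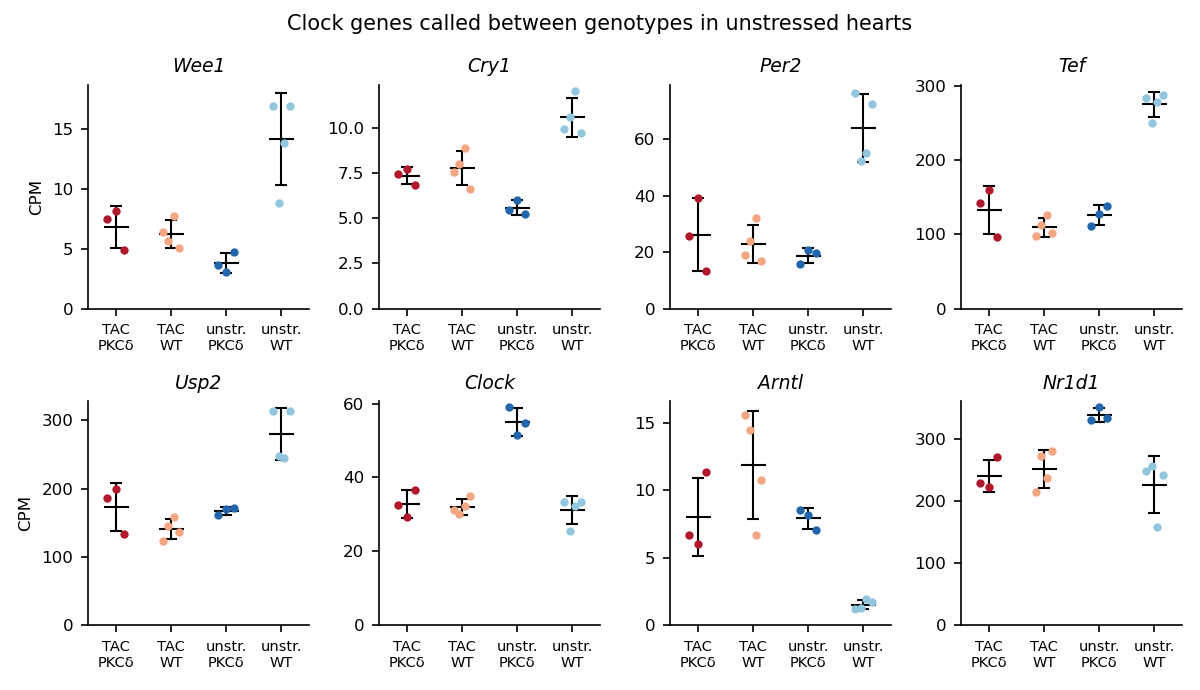
CPM per library (points) of 8 clock genes called between genotypes in unstressed hearts, in TAC PKCδ, TAC wild-type, unstressed PKCδ and unstressed wild-type hearts, with mean and SD (n = 3 or 4). The unstressed wild-type libraries lie above the other 10 for Per2, Tef, Usp2, Cry1 and Wee1, and below them for Arntl.

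Trim12a, a tripartite motif gene of the interferon list, had an interaction of 4.81 ± 0.94 (adjusted p = 0.0116). It was 5.45, 7.13 and 4.73 CPM in TAC PKCδ hearts, against 4.83, 4.91, 5.63 and 4.74 in TAC wild type. It was 0.170, 0.0837 and 0.454 in unstressed PKCδ hearts, against 7.57, 4.36, 5.83 and 6.75 in unstressed wild type. The unstressed PKCδ libraries were the only low ones, with 2, 1 and 6 counts. Trim12a has a near copy, Trim12c, so its level is uncertain. Mogat2, a monoacylglycerol acyltransferase, was singled out after its values were seen. Its interaction of 5.96 ± 1.03 (adjusted p = 0.00242) was the highest of all called genes but rests on few counts. Mogat2 had 35 counts in all over the 3 TAC PKCδ libraries, against 34 over the 4 TAC wild-type libraries, and 1 over the 3 unstressed PKCδ libraries, against 84 over the 4 unstressed wild-type libraries. The interferon list had 2 of 38 measured members called (5.26%, against 1.27% of all genes). The other was the chemokine Cxcl10, with an interaction of −3.13 ± 0.71 (adjusted p = 0.0191) and no library of the 14 above 1.09 CPM.

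Of genes with smaller or regulatory roles, Nf2 (merlin, which acts upstream of the Hippo pathway) had an interaction of 0.53 ± 0.08 (adjusted p = 0.00156). It was 204, 204 and 195 CPM in TAC PKCδ hearts, against 186, 177, 191 and 189 in TAC wild type. It was 174, 150.4 and 152 in unstressed PKCδ hearts, against 203, 216, 211 and 216 in unstressed wild type. The unstressed PKCδ libraries were the lowest of the 14. Kdm8, a JmjC-domain protein, had an interaction of 1.50 ± 0.25 (adjusted p = 0.00156), Lonrf1, a RING finger protein with a LON domain, one of 1.72 ± 0.27 (adjusted p = 0.00116), and the small GTPase Rasl10b one of 0.75 ± 0.14 (adjusted p = 0.00452). Leo1, a subunit of the PAF1 complex that travels with RNA polymerase II, had an interaction of −1.16 ± 0.19 (adjusted p = 0.00156). Its unstressed wild-type libraries were the lowest of the 14. Nav2, a cytoskeletal protein, had an interaction of −0.88 ± 0.12 (adjusted p = 0.000313), with the unstressed PKCδ libraries highest.

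Several genes shared by both arms act in the nucleus, as do some led by the unstressed arm, such as Leo1, and no share was counted. Chd6, a chromatin remodeller, had an interaction of 0.86 ± 0.18 (adjusted p = 0.0119), and Rev1, a translesion DNA polymerase, one of 0.74 ± 0.16 (adjusted p = 0.013). The zinc finger protein Hivep2 had one of 0.53 ± 0.11 (adjusted p = 0.0132), the nucleoporin Ahctf1 one of 0.68 ± 0.15 (adjusted p = 0.0133) and the homeobox gene Six4 one of 1.18 ± 0.28 (adjusted p = 0.0304). Of the exonic bases of Rev1, 26.6% lie opposite Eif5b, which these libraries cannot separate. In the secretory pathway Sec23b, a COPII coat subunit, had an interaction of −0.79 ± 0.16 (adjusted p = 0.0119) and Ckap4, a protein of the rough endoplasmic reticulum, one of −0.66 ± 0.14 (adjusted p = 0.0119). Colq, which anchors acetylcholinesterase, had an interaction of −1.55 ± 0.29 (adjusted p = 0.00477), the epsin Epn3 one of −3.02 ± 0.71 (adjusted p = 0.0361) and the immunoglobulin superfamily gene Igsf3 one of −0.89 ± 0.16 (adjusted p = 0.00422). Arhgap32, a GTPase-activating protein led by the unstressed arm, had one of 1.14 ± 0.25 (adjusted p = 0.0164), and periplakin (Ppl) one of 1.75 ± 0.43 (adjusted p = 0.0451), a call that ended in 18 of 25 other settings. The call also ended in 14 of 25 other settings for Epn3 and for Flt1, in 11 for Ndnf, in 10 for Six4 and for Tmem108, in 9 for Kcne1 and in 7 for Cxcl10 and for Wee1.

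Single members were called in other lists too, where the share of all genes was 1.27%. Cenpf, a kinetochore protein, was 1 of 47 in the cell cycle list (2.13%), with an interaction of −1.16 ± 0.24 (adjusted p = 0.012). Osgin1, a growth inhibitor induced by oxidative stress, was 1 of 30 in the NRF2 list (3.33%), with an interaction of 1.59 ± 0.34 (adjusted p = 0.0124). Flt1, a VEGF receptor, was 1 of 16 endothelial markers (6.25%), with an interaction of 0.54 ± 0.13 (adjusted p = 0.0299). U was called in 5 of the 16, all lower in PKCδ hearts (31.2%, against 5.37% of all genes). Endothelial markers summed to 2470 to 2550 CPM in TAC PKCδ hearts, against 2200 to 2580 in TAC wild type, and 2350 to 2430 in unstressed PKCδ hearts, against 2420 to 2540 in unstressed wild type, and their part in the result for Flt1 was not tested. By edgeR no member was called in the lists of cardiac stress and fetal genes (30 measured), immediate early genes (35), heat shock and ER stress (38) and cell death (29), or in any list of cell type markers besides the endothelial one.

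The stress genes that TAC raised were not called for the interaction. The natriuretic peptide gene Nppa was 471, 677 and 1415 CPM in TAC PKCδ hearts, against 1976, 1513, 2425 and 1714 in TAC wild type. It was 116, 131 and 132 in unstressed PKCδ hearts, against 144, 137, 159.5 and 142 in unstressed wild type. The genotypes did not overlap in either arm, yet neither T (−1.16 ± 0.46, adjusted p = 0.853) nor the interaction, −0.95 ± 0.64 (adjusted p = 0.567), was called, and 61.5% of its exonic bases lie opposite an antisense gene. The TAC effect of Nppa was 2.76 (log2) in PKCδ and 3.71 in wild-type hearts. Myh7, the slow myosin heavy chain, had an interaction of −0.86 ± 0.54 (adjusted p = 0.526), skeletal actin Acta1 one of −1.63 ± 0.61 (adjusted p = 0.225) and collagen Col1a1 one of −0.76 ± 0.36 (adjusted p = 0.354). For Nppb, Myh6, Ankrd1, Atp2a2, Ryr2, Kcnj2, Postn, Ctgf, Tgfb2, Ppargc1a and Hadha the adjusted p lay between 0.21 and 0.995.

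By RefSeq positions (GRCm38.p6), 9 of 81 genes tested in the first 10 Mb of chromosome 11 were called (11.1%, against 1.27% of all genes). U was called there in 17 (21.0%, against 5.37% of all genes). The 9 were Nf2, Ap1b1, Urgcp, 2210015D19Rik, Ddx56, Nacad, Tbrg4, Sun3 and Upp1. Between 90 and 110 Mb of chromosome 7, 10 of 139 were called (7.19%), and U in 21 (15.1%). They were Ndufc2, Myo7a, Dgat2, Mogat2, Slco2b1, Pgm2l1, Relt, Pgap2, Trim12a and Gm15645. In each stretch some genes had a higher TAC effect in PKCδ hearts and others a lower one. Both stretches were picked after 273 windows of 10 Mb had been counted, 168 of which held no called gene. At least 4 genes were called in 7 windows, those of the named stretches among them, and these windows held 36 called genes. Jmjd7 (−3.53 ± 0.72, adjusted p = 0.0119) and Pla2g4b (−2.73 ± 0.58, adjusted p = 0.0132) share a read-through annotation that covers 66.7% and 66.5% of their exonic bases, so they are not independent.

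The same contrast can be taken in the other 15 libraries, whose group means were not part of the contrast that chose the genes. They are hearts labelled combined knockout of PKCδ and PKCε against hearts with germline knockout of PKCε. This comparison was added after the first results had been seen. Both contrasts come from the same fit of 29 libraries, with the same filter, size factors and estimate of spread. The other 15 libraries thus had a part in which genes were called, and the 14 libraries alone gave 515. The contrasts are therefore not independent. In the other 15 libraries the interaction was called in 1853 genes (13.5%) and the unstressed difference in 3482 (25.3%). Of the 175 genes, 50 were called for the interaction (28.6%), 46 in the same direction as in the 14 libraries and 4, among them Sfswap, Hmcn1 and 2210015D19Rik, in the opposite one. The sign of the interaction was the same in 136 (77.7%), against 55.2% of all genes. The TAC difference had the same sign in 92 of the 175 (52.6%), against 48.6% of all genes, and edgeR called none of the 175 for it. The unstressed difference had the same sign in 140 (80%), against 50.1% of all genes.

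Cacna1h had an interaction of −2.81 ± 0.46 (adjusted p = 0.000679) in those libraries. It was at 8.52 to 21.2 CPM in TAC combined hearts, against 9.80 to 19.3 in TAC PKCε hearts, and at 76.1 to 110.0 in unstressed combined hearts, against 8.25 to 12.6 in unstressed PKCε hearts. As in the first contrast, the groups lay apart in unstressed hearts and overlapped after TAC. Aldh1b1, a mitochondrial aldehyde dehydrogenase, had an interaction of −1.51 ± 0.20 (adjusted p = 5.36e-05) there and −1.02 ± 0.21 (adjusted p = 0.0111) in the 14 libraries. Nav2 had one of −0.69 ± 0.12 (adjusted p = 0.00055) and Trim12a one of 3.12 ± 0.80 (adjusted p = 0.0128). Tmem108, a transmembrane protein, had one of −1.35 ± 0.43 (adjusted p = 0.0388) there and −2.07 ± 0.48 (adjusted p = 0.0288) in the 14 libraries. Igsf3, Ppp1r3a, Rev1, Hivep2, Ahctf1, Flt1, Nf2 and Kdm8 were also called in the same direction. Nacad (−0.43 ± 0.30, adjusted p = 0.366), Slc7a1 (−0.33 ± 0.16, adjusted p = 0.184), Wdr92 (−0.08 ± 0.47, adjusted p = 0.928) and Fmn1 (−1.23 ± 1.11, adjusted p = 0.5) were not called. Nor were Olfml2b (adjusted p = 0.344), Dgat2 (0.746), Fbn1 (0.82), Fn1 (0.607) and Wee1 (0.64). Both called glucose genes, Mpc2 (−0.13) and Slc2a4 (−0.09), were not called there and had the opposite sign. The same held for Rasl10b (−0.03), Sec23b (0.22) and Cxcl10 (0.11). Fmn1 was at 2.40 to 5.47 CPM in unstressed combined hearts, against 1.01 to 2.95 in unstressed PKCε hearts. The library labelled combined, TAC, replicate 2 goes against its label in Prkce, and without it 36 of the 175 genes were called in the same direction. Without unstressed PKCε replicate 1 there were 30, of 989 genes called in all, and with the sex label as a term 29, of 691.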

How the data were processed

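RNA-seq libraries of mouse hearts were taken from the deposited raw counts per gene, which the authors made by aligning single-end reads to mm10 with TopHat2 2.0.10 and Bowtie2 and counting with HTSeq, per the submitters' processing notes. The libraries were not strand-specific, per the labels' protocols. The files hold 23420 genes, and 23391 of them are shared with the series table, identical in all 29 libraries. The 5 totals outside genes were left out. Samples were grouped by their labels.

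edgeR 4.0.16 (R 4.3.3) was used with TMM size factors, its filter on low counts (13765 genes kept), group means and robust quasi-likelihood fits over 29 libraries (21 residual degrees of freedom). CPM are scaled by TMM. The test was checked on simulated data. The members and lists were chosen with earlier results of these data known. Named genes were Prkcd, Prkce, 15 cardiac genes, up to 4 called members of each list at any level and, among called genes averaging 2 or more in log2 CPM, the 10 with the largest interaction in each direction and the 5 with the smallest adjusted p in each direction and arm. A few called genes are not reported here. Genes with provisional names were counted only, apart from those listed by arm or position, and the clock genes, Mogat2, Scd2, Fads1, Pnpla3, Jmjd7 and Pla2g4b were added after their values were seen. Alternatives were DESeq2 1.42.0, other size factors, no filter, sex terms, male libraries only, the 14 libraries alone, a block for the replicate number, and each library left out in turn. Positions and promoters are RefSeq's (GRCm38.p6), and exon overlaps are from GENCODE.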

Additional observations from a re-analysis of the deposited data

Results flagged for a closer look

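For all 175 called genes the effect of TAC differed between PKCδ and wild-type hearts by edgeR's interaction test. Genes added after their values were seen, such as Mogat2 at 5.96, are left out of the list that follows. The reported genes that the rule for named genes chose had these log2 interactions (PKCδ minus wild type). Of those with a higher TAC effect in PKCδ hearts, Trim12a stood at 4.81, Wee1 at 2.03, Ppl at 1.75, Lonrf1 at 1.72, Osgin1 at 1.59, Mid1ip1 at 1.58, Kdm8 at 1.50, Dgat2 at 1.44, Pgm2l1 at 1.32, Six4 at 1.18, Arhgap32 at 1.14 and Ppp1r3a at 1.07. Below those were Chd6 at 0.86, Rasl10b at 0.75, Rev1 at 0.74, Ahctf1 at 0.68, Flt1 at 0.54, Nf2 at 0.53, Hivep2 at 0.53, Mpc2 at 0.49 and Slc2a4 at 0.40. Of those with a lower TAC effect, Fmn1 stood at −5.45, Ndnf at −3.34, Scn10a at −3.28, Cxcl10 at −3.13, Kcne1 at −3.11, Epn3 at −3.02, Wdr92 at −2.97, Cacna1h at −2.94, Olfml2b at −2.46, Nacad at −2.33, Slc1a4 at −2.10 and Tmem108 at −2.07. Then came Colq at −1.55, Slc7a1 at −1.27, Fbn1 at −1.25, Leo1 at −1.16, Cenpf at −1.16, Aldh1b1 at −1.02, Fn1 at −0.95, Igsf3 at −0.89, Nav2 at −0.88, Sec23b at −0.79 and Ckap4 at −0.66.

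In groups of 4 libraries, 1 library lay far from the other three in 12 of 122 pairs of gene and group (9.84%), where chance gives about 1 in 20. In TAC wild-type hearts these were replicate 3 for Dgat2 (264 CPM) and Ahctf1 (20.7), replicate 1 for Cxcl10 (1.01), replicate 4 for Flt1 (185), Epn3 (7.03) and Atp2a2 (9110), and replicate 2 for Nppb (543). In unstressed wild-type hearts they were replicate 3 for Slc1a4 (4.92 CPM), Prkcd (13.4) and Postn (21.1), and replicate 2 for Ahctf1 (24.4) and Arhgap32 (50.3).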

How the results depend on the processing

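With 1 of the 14 libraries left out, the interaction was called in 56 to 256 genes, 18 to 100 higher and 38 to 156 lower, and the unstressed arm led 48 to 199, the TAC arm 0 to 3 and both arms 8 to 71. U was called in 210 to 779 genes, T in 0 to 0, the TAC effect in 2461 to 3720 (PKCδ) and 4053 to 4866 (wild type), and unequal arms in 8 to 63. With 1 of the other 15 left out, 989 to 2267 genes were called, 30 to 52 of them members with the same direction. DESeq2 called 307 genes (138 higher, 169 lower, with 222 led by the unstressed arm, 2 by the TAC arm and 83 by both), 1 for T and 174 for unequal arms. The 14 libraries alone gave 515 (237 higher, 278 lower, with 356, 8 and 151 by arm), 1345 for U and 332 for unequal arms. Libraries labelled male gave 85 (25 higher, 60 lower, with 32 led by the unstressed arm, 5 by the TAC arm and 48, the largest set, by both), 1600 for the TAC effect in PKCδ hearts and 13 for unequal arms. The sex label as a term left 0 led by the TAC arm, 27 by both and 17 unequal, and in the other 15 libraries 691 called and 29 members. The Y-linked score left 0 led by the TAC arm and 80 unequal, and no filter left 0 led by the TAC arm. A share of at least 0.75 gave 77 genes led by both arms, and one over 0.5 gave 8 led by the TAC arm and 0 by both. Without unstressed wild-type replicates 1 and 4, 46 were called (17 higher, 29 lower, with 38, 0 and 8 by arm), 105 for U, 3241 for the TAC effect in wild type and 3 unequal. Without the library labelled combined, TAC, replicate 2, 237 were called, the TAC arm led 2, both arms 68, 909 were called for U, 3915 and 5123 for the TAC effect (PKCδ, wild type) and 72 for unequal arms. The cause of these changes was not tested. The replicate numbers did not pair the libraries (r of −0.0751 to 0.157 over 19 pairs), and a replicate block gave 157 calls. Every one of the 175 genes kept its sign in each setting that tested it. The genes were chosen by their interaction in these libraries, so the kept signs are fixed in part by the choice. Of 1549 values of named genes, called or not in the main fit, 192 lost a call and 1 gained one. Reversals were counted only for genes called in either fit, and there were 0. The uncalled Ankrd1 (−0.40 to 0.24), Ctgf (−0.31 to 0.37) and Tgfb2 (−0.10 to 0.13) changed sign between settings. Groups of 3 or 4 limit the precision.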
